A study of Rattus norvegicus with 10 samples.

Results

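ATP-binding cassette (ABC) transporters were examined in testes of rat pups on postnatal day 6. A probe of the array was taken as a member if its transcript accession, read without its version, belonged to a gene whose symbol starts with Abca, Abcb, Abcc, Abcd, Abce, Abcf or Abcg followed by a digit. This gave 54 of the 30367 probes of the array and 42 of the 15154 genes that could be named. The RefSeq table used for naming holds 54 such symbols besides pseudogenes, so 12 genes with such a symbol, among them Abca3 and Abcf2, were not analysed here. The members were selected on their symbols alone. The family, Abcc9 and the drug efflux pumps were singled out with earlier results of these arrays known, and Abcc9 was chosen by its T and C levels, which are therefore given as a description. Most of the family was measurable at this age, in 35 genes of 42. Between the groups 0 of the 35 passed the threshold, as did 0.0% of all 21891 probes tested. The groups did not overlap for 1 member, Abcc9, and for 0.722% of all probes without a missing value. As Abcc9 was chosen by these levels, nothing about the family is read from that count.

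The pups came from Brown Norway males crossed with Sprague Dawley females, and all were male. Their fathers had received saline or BEP for 9 weeks and had then recovered for 9 weeks. The letters BEP usually stand for bleomycin with etoposide and cisplatin, a chemotherapy, although the labels do not spell them out, and no pup was itself labelled as treated. The code of the father carries a C on 5 arrays and a T on 5, which are read here as saline and BEP, an inference that no label states. Each of the 10 arrays has its own father code, and how many pups an array pools is unknown here.

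ABC proteins share a nucleotide-binding domain that hydrolyses ATP. Most use it to move lipids, bile acids, drug conjugates, peptides or metals across a membrane, either out of the cell or across the membrane of an organelle. Members of the C subfamily include the sulfonylurea receptors, which are regulatory subunits of potassium channels, and the E and F subfamilies have no membrane part and act in translation. In the adult testis, efflux pumps in Sertoli cells, endothelium and peritubular cells belong to the barrier that limits the entry of drugs into the seminiferous tubule, and sterol exporters of the A and G subfamilies take part in cholesterol handling by Sertoli cells.

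Levels are log2 scanner signals minus the 75th percentile of the array, so that 0 is the 75th percentile and a step of 1 is a doubling. Probes differ in how they bind and label, so the level of one gene is not set against that of another. On the linear scale that percentile was 1525 to 2686 units, and 70.4% to 74.8% of the probes of an array were well above background by the mark of the scanner software. The arrays lay on 2 slides, with 3 C and 2 T arrays on slide 1 and 2 C and 3 T arrays on slide 2. Sertoli cell genes (5 of 5 on the array), Leydig cell genes (5 of 6, all but Lhcgr) and germ cell genes (5 of 5) were well above background on at least 5 arrays. All 5 germ cell genes had higher means in the T group, though 0 passed the test described below, with summed levels (on a linear scale where 1 is the 75th percentile) of 1.93 to 2.17 on the C arrays and 2.11 to 2.68 on the T arrays, and their part in the values below was not tested. Whole testes were measured, so fewer cells of a type and less RNA per cell cannot be told apart in any value below.

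Of the 54 member probes, 44 were well above background on at least 5 of the 10 arrays, where 72.1% of all probes were. These 44 stood for 35 genes. Of the 42 genes, 32 had a probe above background on all 10 arrays and 39 on at least 1. All 4 genes of subfamily D, the single gene of E and both genes of F on the array passed, as did 9 of 10 genes of C, 8 of 9 of G, 7 of 9 of B and 4 of 7 of A. The genes that did not pass were Abca4, the retinoid transporter of photoreceptors, Abca5, Abca15, Abcb11, the bile salt export pump of the liver, Abcb1a, Abcc12 and Abcg8. Abcb1a, Abcb11 and Abcg8 were above background on 0 arrays, Abca4, Abca5 and Abcc12 on 1 array for any of their probes and Abca15 on 2. A signal that is not well above background gives only an upper bound for that probe. It does not bound the RNA of the gene, since a probe may bind its transcript poorly. No difference between groups is given for these 7 genes.

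**Figure D1:**
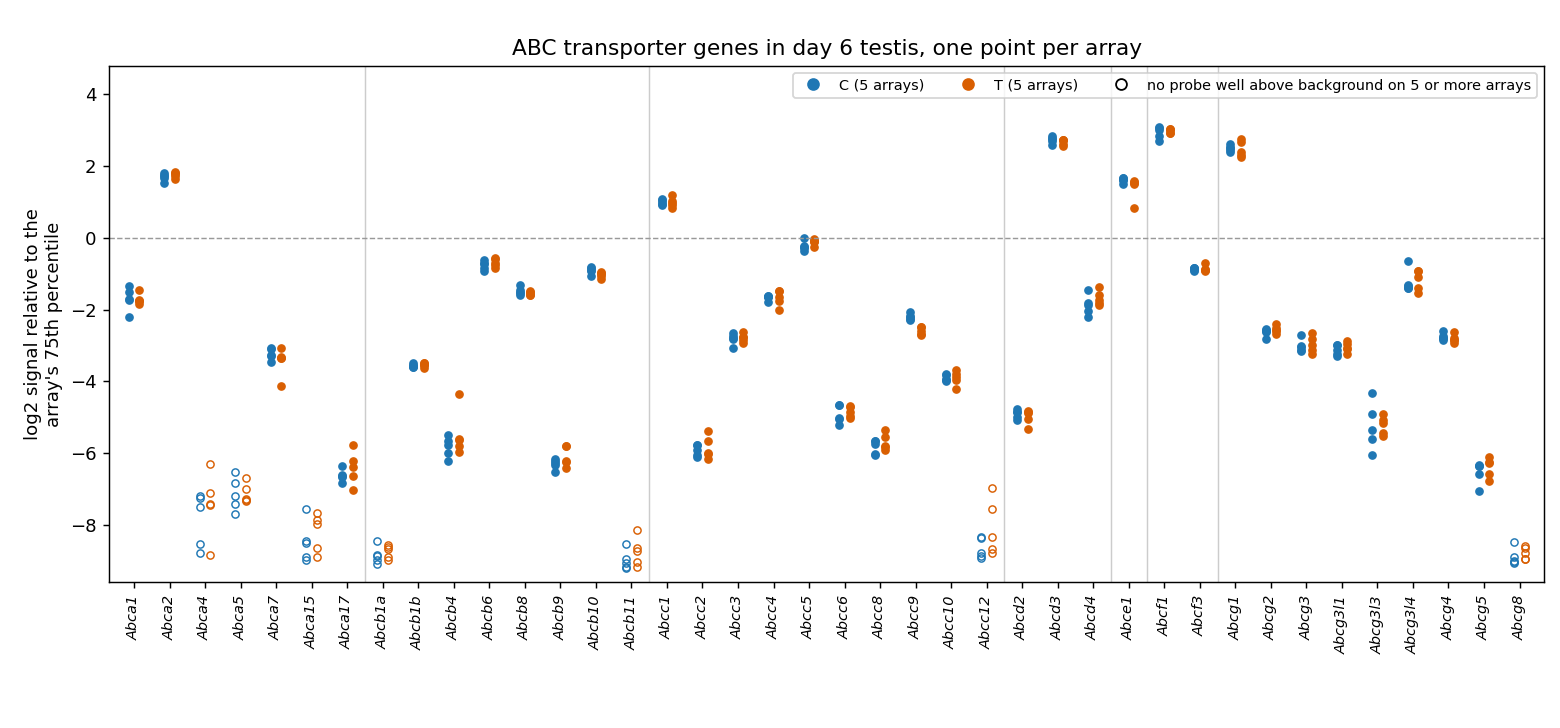
Log2 signal of 40 ABC genes relative to the 75th percentile of each array (vertical axis), with 5 C arrays (blue) and 5 T arrays (orange) per gene and vertical lines between subfamilies. Filled points mark 33 tested genes and open points the 7 that were not, and the C and T points overlap for every tested gene except Abcc9.

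The P-glycoproteins export a wide range of lipophilic drugs, and rodents have 2 genes for them. Abcb1b was well above background on all 10 arrays with both of its probes. The only Abcb1a probe on the array was well above background on 0 of 10, with a scanner signal between 3.58 and 6.11 units. Abcb1a is therefore given no level, and little transcript and a poorly binding probe cannot be told apart. In the RefSeq table the 2 genes are direct neighbours on chromosome 4, beside Abcb4. Their promoters are shown because the probes of the pair differed in detection. Each is the 250 bases before the annotated start, from RefSeq on the GRCr8 build. They lie at chr4:26397649-26397898, minus strand for Abcb1a and at chr4:26280030-26280279, minus strand for Abcb1b. Capitals mark GC boxes (GGGCGG or CCGCCC) and CCAAT boxes (CCAAT or ATTGG).
Abcb1a: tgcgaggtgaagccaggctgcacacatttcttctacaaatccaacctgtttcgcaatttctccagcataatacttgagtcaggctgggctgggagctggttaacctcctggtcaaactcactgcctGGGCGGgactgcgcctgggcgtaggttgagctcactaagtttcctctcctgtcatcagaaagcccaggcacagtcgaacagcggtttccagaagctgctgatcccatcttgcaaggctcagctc
Abcb1b: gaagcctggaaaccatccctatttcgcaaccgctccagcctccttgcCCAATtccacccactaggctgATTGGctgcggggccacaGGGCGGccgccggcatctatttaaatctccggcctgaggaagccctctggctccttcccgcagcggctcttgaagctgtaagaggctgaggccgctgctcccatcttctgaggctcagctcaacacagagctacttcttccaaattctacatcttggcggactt
The Abcb1b stretch held 1 GC box and 2 CCAAT boxes, and the Abcb1a stretch held 1 GC box and 0 CCAAT boxes. Neither held TATAAA or its complement. These matches describe the letters of the window and not sites in use.

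Of the 9 drug efflux pumps listed, 8 were tested, 5 with a higher and 3 with a lower mean in the T group, and 0 passed the threshold (limma, Benjamini-Hochberg over all 21891 probes tested, 0.0% of which passed). The median difference of the 8 pumps was 0.019 on the log2 scale, against -0.020 for all probes. By the brightest tested probe of each gene, Abcb1b varied least of all 35 genes, with an SD of 0.051 over the 10 arrays. Its values were -3.56, -3.59, -3.59, -3.48 and -3.55 on C replicates 1 to 5 and -3.54, -3.49, -3.56, -3.64 and -3.49 on T replicates 1 to 5. The groups overlapped throughout, and the difference, T minus C, was 0.011 ± 0.054 (SE, 5 arrays per group) with a 95% interval of -0.11 to 0.13. A second Abcb1b probe gave 0.039 ± 0.15 and had an SD of 0.244 over the 10 arrays, so the small spread is that of 1 probe.

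Abcg2, the breast cancer resistance protein, also exports drugs and is found at many tissue barriers. Its values were -2.60, -2.58, -2.54, -2.62 and -2.82 on C replicates 1 to 5 and -2.51, -2.56, -2.67, -2.60 and -2.40 on T replicates 1 to 5. The C arrays held the lowest value and the T arrays the highest, with the others between them, and the difference was 0.087 ± 0.073 (interval -0.075 to 0.25). Without C replicate 5, the lowest array, it was 0.040.

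Abcc1, the multidrug resistance protein that exports glutathione conjugates, had 3 tested probes. The brightest gave 0.92, 0.94, 0.98, 1.06 and 1.08 on C replicates 1 to 5 and 0.83, 0.96, 1.20, 1.03 and 0.90 on T replicates 1 to 5. Its groups overlapped fully, with a difference of -0.012 ± 0.076. The other two probes gave -0.16 ± 0.076 and -0.12 ± 0.14, both of the same sign. Abcc4, which exports cyclic nucleotides and prostaglandins as well as drugs, had values of -1.61, -1.64, -1.66, -1.62 and -1.79 on C replicates 1 to 5 and -1.48, -1.49, -1.77, -1.64 and -2.02 on T replicates 1 to 5 and a difference of -0.017 ± 0.10. The highest and the lowest of these arrays were both T arrays. Its second probe stood at -0.12 ± 0.10.

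Abcc5, an exporter of cyclic nucleotides, gave -0.27, -0.22, -0.27, -0.36 and -0.02 on C replicates 1 to 5 and -0.27, -0.10, -0.13, -0.03 and -0.09 on T replicates 1 to 5. The highest value was that of C replicate 5, and T replicate 1 lay among the other C arrays (difference 0.11 ± 0.076). A second Abcc5 probe had the opposite sign, -0.091 ± 0.087, so the 2 probes of this gene disagree in direction, and neither passed. Abcc3, which exports conjugated organic anions, ranged from -3.08 to -2.66 on the C arrays and -2.93 to -2.62 on the T arrays (0.026 ± 0.09). Abcc10 ranged from -3.98 to -3.79 on the C arrays and -4.20 to -3.69 on the T arrays (-0.007 ± 0.094). Abcc2, the conjugate exporter of the apical membrane of liver and kidney, ranged from -6.11 to -5.77 on the C arrays and -6.17 to -5.39 on the T arrays (0.08 ± 0.14), and its scanner signal was 22.7 to 62.6 units. The 95% intervals of all 8 pumps lay inside a 1.5-fold difference in either direction.

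Abcc9 encodes SUR2, the sulfonylurea receptor that joins the pore protein Kir6.1 or Kir6.2 in ATP-sensitive potassium channels of heart, skeletal and smooth muscle. It stood lower in the T group on the one probe of 3 that could be measured. The values were -2.20, -2.27, -2.08, -2.17 and -2.29 on C replicates 1 to 5 and -2.68, -2.72, -2.61, -2.48 and -2.47 on T replicates 1 to 5. Every T array lay below every C array, and the means lay farther apart than the lowest and highest array within either group. The group means were -2.20 ± 0.085 for C and -2.59 ± 0.12 for T (SD, n = 5 each). The difference was -0.39 ± 0.071 on the log2 scale, a factor of 1.31, at scanner signals of 297 to 635 units. As the gene was singled out for its pattern, no test is drawn from this difference. Among all probes without a missing value, 0.722% had groups that did not overlap, in either direction, and 0.53% had all T arrays below all C arrays. Within slide 1 the difference was -0.52 and within slide 2 it was -0.29, and leaving out each array in turn it ran from -0.42 to -0.36. With separate groups its sign could not turn in such subsets, so these values describe only its size.

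The other two probes of Abcc9, assigned to the same transcript accession, were well above background on 1 and on 2 of the 10 arrays and gave no level to set beside the first. The files do not say which part of the transcript a probe matches. The difference in Abcc9 thus rests on a single probe. Its promoter is shown since this is the member with separate groups, again as the 250 bases before the annotated start on GRCr8, at chr4:177386349-177386598, minus strand, with a GC box in capitals.
Abcc9: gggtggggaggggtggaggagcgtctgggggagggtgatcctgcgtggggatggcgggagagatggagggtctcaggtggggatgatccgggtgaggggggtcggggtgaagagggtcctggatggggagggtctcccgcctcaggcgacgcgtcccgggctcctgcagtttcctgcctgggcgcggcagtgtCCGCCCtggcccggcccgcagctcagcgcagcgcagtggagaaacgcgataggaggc
This stretch held 1 GC box, 0 CCAAT boxes and 0 copies of TATAAA, and 71.2% of its bases were G or C.

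**Figure D2:**
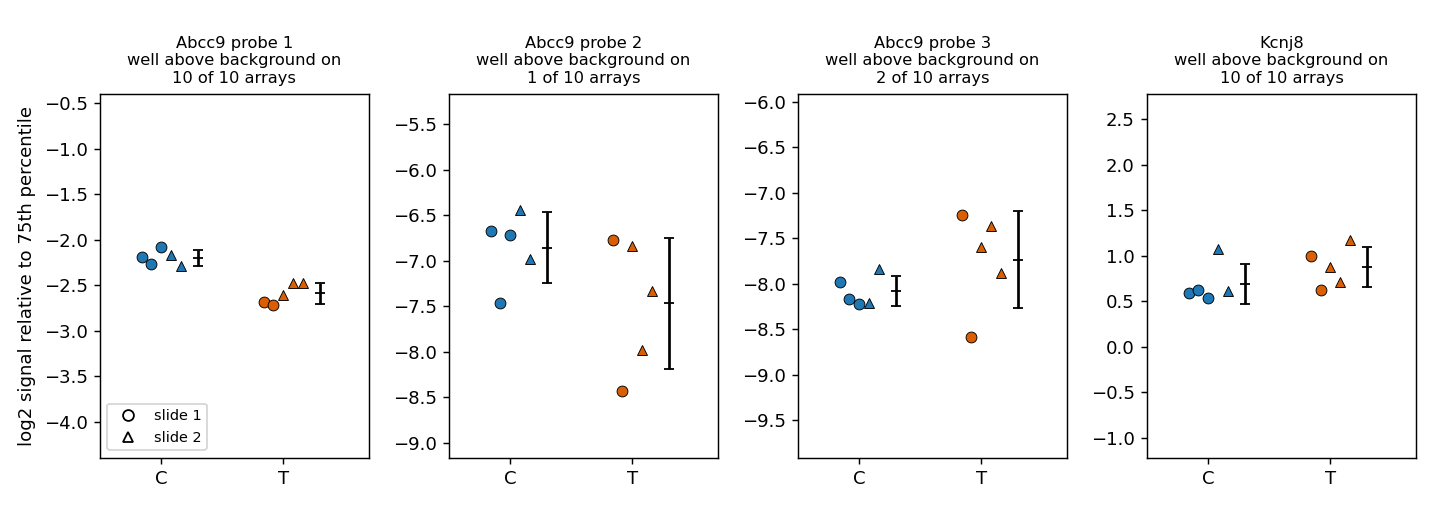
Log2 signal relative to the 75th percentile of the array (vertical axes, each spanning 4 units) on the 3 Abcc9 probes and the Kcnj8 probe, with 1 point per array, circles for slide 1, triangles for slide 2 and bars for mean and SD of 5 arrays. On Abcc9 probe 1 all T arrays lie below all C arrays, probes 2 and 3 are near background, and the groups overlap for Kcnj8.

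Kcnj8 encodes Kir6.1, the pore that SUR2 joins in vascular smooth muscle and pericytes, and it is the direct neighbour of Abcc9 in the RefSeq table. Its values were 0.59, 0.62, 0.53, 1.07 and 0.61 on C replicates 1 to 5 and 0.99, 0.62, 0.87, 0.71 and 1.17 on T replicates 1 to 5. They overlapped between the groups, and the difference was of the other sign than that of Abcc9, 0.19 ± 0.13. Across the 10 arrays the 2 genes gave Pearson's r = -0.30 and Spearman's rho = -0.33. These are a description, since Abcc9 was chosen by its T and C levels and that gap enters the pooled values. Without the 2 arrays farthest from the Abcc9 median r was -0.37, within slide 1 it was -0.66 and within slide 2 it was 0.05. Within the C arrays r was 0.071 and within the T arrays 0.38, so the negative sign of the pooled value is not seen inside either group of 5. No test of a relation between these partners is drawn from these values.

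Markers of cells that contain this channel differed in direction between lists. Except for Kcnj8, their relation to Abcc9 over the arrays was not computed. Of 5 genes of pericytes and vascular smooth muscle, all measured, 4 had higher T means and 1 a lower one. Their summed level ran from 4.53 to 5.30 on the C arrays and from 4.83 to 5.84 on the T arrays. Kcnj8, described above, is among the 4 and is part of this sum. Of 4 genes of peritubular myoid cells 0 were higher and 4 were lower, with sums of 12.2 to 17.5 on the C arrays and 11.2 to 14.1 on the T arrays. Of 5 striated muscle genes 4 were measured and Ckm was not above background, with 3 higher and 1 lower and sums of 0.171 to 0.335 and 0.169 to 0.362. The myoid gene Acta2 and the striated muscle gene Acta1 were lower on slide 2, by -0.355 ± 0.097 and -1.436 ± 0.12. Both passed by slide (limma with the group in the model, adjusted p = 0.0479 and 4.97e-05). No other measured gene of these lists did. The C and T arrays are unevenly spread over the slides, so the sums with these genes also carry the slide. The part of these cells in the Abcc9 difference was not tested. Abcc8 encodes the related receptor SUR1 of the pancreas and brain. It ranged from -6.06 to -5.66 on the C arrays and -5.91 to -5.35 on the T arrays, with a difference of 0.14 ± 0.12, while its pore partner Kcnj11 was not well above background on any array.

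Sterol and lipid exporters were split between the directions. Of 6 tested genes of this group 2 had higher means and 4 lower means with T than with C, 0 passed, and the median difference was -0.019. Abca1 loads cholesterol and phospholipid onto apolipoprotein A1. Its values were -1.35, -1.72, -2.21, -1.52 and -1.70 on C replicates 1 to 5 and -1.72, -1.46, -1.77, -1.76 and -1.86 on T replicates 1 to 5. The highest and the lowest value were both C arrays, so the difference of -0.011 ± 0.15 is small beside the spread within the C group. Abcg1, which passes cholesterol to lipoprotein particles, gave 2.45, 2.54, 2.61, 2.51 and 2.39 on C replicates 1 to 5 and 2.25, 2.31, 2.67, 2.75 and 2.39 on T replicates 1 to 5. Here the T arrays held both ends of the range (difference -0.027 ± 0.10), and the sign turned between the slides, at -0.25 within slide 1 and 0.15 within slide 2. Across the 10 arrays Abca1 and Abcg1 gave r = -0.37 and rho = -0.37 (permutation p = 0.304 and 0.293, adjusted p = 0.393 and 0.465). Without the 2 arrays farthest from the Abca1 median r was -0.29, within the slides it was -0.57 and -0.028, and within the C and T arrays it was -0.67 and -0.39.

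Abca2, a lipid transporter of endosomes and lysosomes, ranged from 1.53 to 1.81 on the C arrays and 1.65 to 1.84 on the T arrays (0.056 ± 0.068). Abca7, a relative of Abca1, gave -3.09, -3.28, -3.45, -3.06 and -3.28 on C replicates 1 to 5 and -3.08, -3.35, -3.35, -3.33 and -4.12 on T replicates 1 to 5. One T array, replicate 5, was far below the other 9 values. The difference was -0.21 ± 0.17 with it and -0.042 without it. Abcg4, which is known from neurons and glia, ranged from -2.86 to -2.58 on the C arrays and -2.94 to -2.64 on the T arrays (-0.06 ± 0.074). Abcg5 and Abcg8 work only as a dimer that exports plant sterols and cholesterol, and the genes are neighbours in the RefSeq table. Abcg5 was well above background on 7 of 10 arrays at a signal of 16.1 to 37.2 units (0.14 ± 0.17), and Abcg8 was above background on 0.

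The bile and phospholipid exporters Abcb4 and Abcb11 were listed together with Abcc6. Abcb4 and Abcc6 were tested, both with a higher mean in the T group, and 0 passed. Abcb4 flips phosphatidylcholine into bile. At a signal of 33.4 to 132 units it gave -5.51, -6.00, -5.67, -5.77 and -6.22 on C replicates 1 to 5 and -4.36, -5.61, -5.81, -5.98 and -5.63 on T replicates 1 to 5. One T array, replicate 1, stood above all others, and the difference of 0.36 ± 0.28, with an interval of -0.26 to 0.97, was 0.077 without that array. It was the member with the largest SD over the 10 arrays, 0.50. Abcc6, whose loss causes ectopic calcification in humans, ranged from -5.22 to -4.65 on the C arrays and -5.02 to -4.69 on the T arrays (0.066 ± 0.12).

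Members of mitochondria are given singly. Abcb10, of the inner membrane and linked to haem synthesis, gave -1.06, -0.83, -0.92, -0.91 and -0.80 on C replicates 1 to 5 and -1.07, -1.01, -0.99, -0.96 and -1.16 on T replicates 1 to 5. The T arrays lay in the lower part of the range, but C replicate 1 lay among them, and the difference was -0.13 ± 0.068. Abcb8 ranged from -1.60 to -1.32 on the C arrays and -1.60 to -1.48 on the T arrays (-0.057 ± 0.064), and Abcb6, a porphyrin transporter, from -0.93 to -0.61 on the C arrays and -0.84 to -0.56 on the T arrays (0.068 ± 0.08).

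Peroxisomal transporters bring fatty acyl-CoA into the organelle. Abcd3, which carries branched and bile acid precursors, ranged from 2.59 to 2.83 on the C arrays and 2.57 to 2.73 on the T arrays (-0.057 ± 0.065). Abcd2 ranged from -5.08 to -4.77 on the C arrays and -5.33 to -4.82 on the T arrays (-0.082 ± 0.11). Abcd4 is a lysosomal protein of cobalamin transport and not peroxisomal. It ranged from -2.21 to -1.47 on the C arrays and -1.87 to -1.38 on the T arrays (0.20 ± 0.14).

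The members without a membrane part act on ribosomes. Abce1 splits ribosomes for recycling and gave 1.608, 1.654, 1.653, 1.501 and 1.601 on C replicates 1 to 5 and 1.581, 0.821, 1.520, 1.504 and 1.545 on T replicates 1 to 5. The other 9 arrays lay between 1.501 and 1.654, and T replicate 2 was alone at 0.821. The difference of -0.21 ± 0.14 became -0.066 without that array. Abcf1, a factor of translation initiation, ranged from 2.71 to 3.09 on the C arrays and 2.92 to 3.03 on the T arrays (0.045 ± 0.08), and Abcf3 from -0.94 to -0.83 on the C arrays and -0.93 to -0.69 on the T arrays (0.02 ± 0.061).

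Abcg3 and its like-named relatives Abcg3l1, Abcg3l3 and Abcg3l4 are copies related to Abcg2, and probes may not separate them, so their values are uncertain as values of single genes. All 4 were measured. Abcg3l4 gave -1.31, -1.35, -1.39, -1.41 and -0.63 on C replicates 1 to 5 and -1.54, -1.39, -1.10, -0.93 and -0.94 on T replicates 1 to 5. C replicate 5 was the highest array for this gene, and it was also the highest C array for Abcg3 and Abcg3l3. Their differences between the groups were 0.052 ± 0.12 for Abcg3, 0.082 ± 0.089 for Abcg3l1, 0.026 ± 0.28 for Abcg3l3 and 0.039 ± 0.17 for Abcg3l4, where a second probe gave -0.037 ± 0.15. Abca17 ranged from -6.83 to -6.37 on the C arrays and -7.04 to -5.78 on the T arrays (0.21 ± 0.20) and was above background on 6 arrays. Abcb9, a peptide transporter of lysosomes, ranged from -6.53 to -6.15 on the C arrays and -6.42 to -5.80 on the T arrays (0.21 ± 0.13) and had 0.52 within slide 1 and -0.019 within slide 2.

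Over the family, 20 of the 35 genes had a higher T mean, against 41.5% of all probes, and 15 a lower one, against 58.5%. The median difference was 0.026, against -0.020 for all 21891 probes, and the median size without sign was 0.068 against 0.070. With limma (T minus C, 5 arrays per group), 0 of the 35 genes and 0 of the 44 probes passed an adjusted p of 0.05, and every member had an adjusted p of 0.9985. Leaving aside Abcc9, which was chosen by these levels, 0 of the other 34 genes had an unadjusted p under 0.05, where 3.97% of all probes did. The count of higher genes was unstable, at 21 within slide 1 and 15 within slide 2. For 30 of the 35 genes the 95% interval lay inside a 1.5-fold difference both ways, against 86.8% of all probes, and for all 35 it lay inside a 2-fold difference, against 97.4%. The gene counts use the brightest tested probe of each gene. A second Abcb9 probe had an interval of -0.427 to 1.325, which reached past 2-fold. Abca7, Abca17, Abcb4 and Abcg3l3 were among the genes whose interval reached past 1.5-fold.

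**Figure D3:**
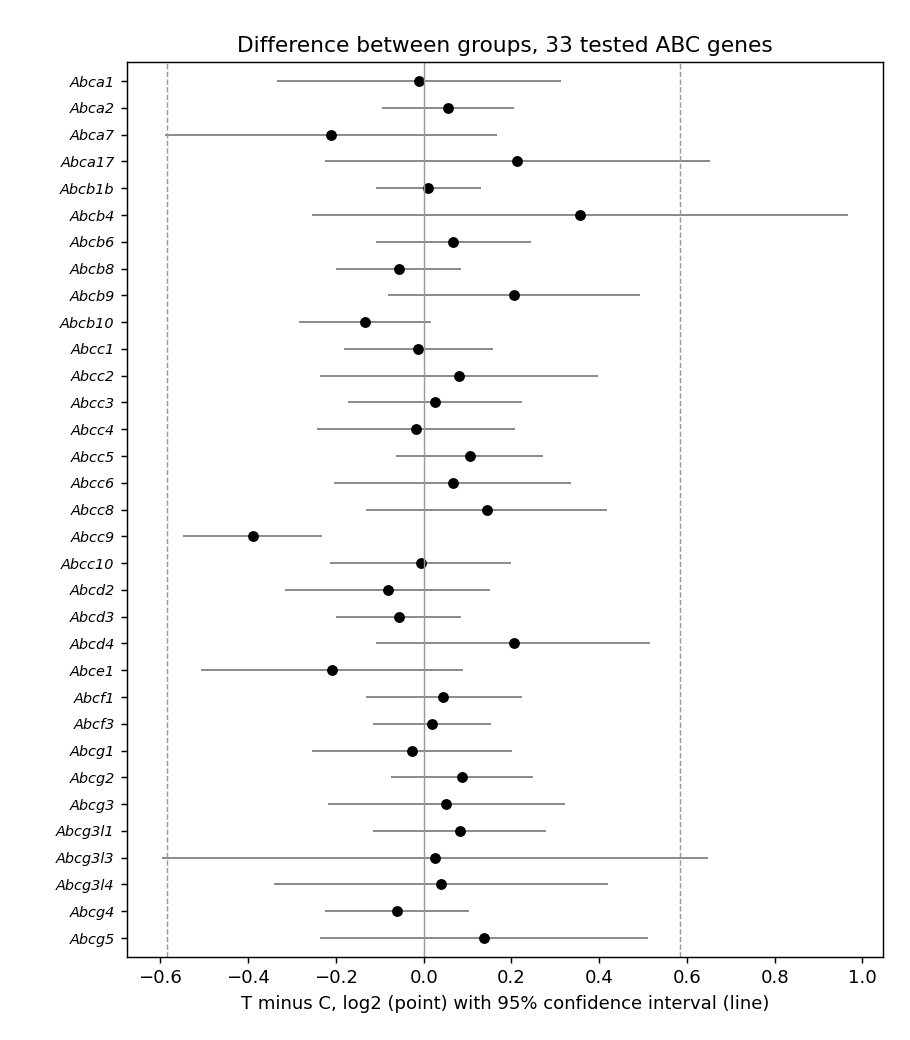
Difference between the groups for 33 tested genes, T minus C on the log2 scale (points), with 95% confidence intervals (lines) and dashed lines at a 1.5-fold difference. The Abcc9 interval, -0.55 to -0.23, lies below 0, but this gene was chosen by its T and C levels and its interval is a description. The intervals of the other 32 genes include 0.

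The slides were compared as well. With the group in the model, slide 2 stood above slide 1 in 26 of the 35 genes, where 42.9% of all probes were higher on slide 2, and the median slide difference was 0.083 for the members and -0.028 for all probes. By limma over the 10 arrays 1 member gene passed, where 9.79% of all probes did. This was Abcg3l3, 1.68-fold higher on slide 2 (0.75 ± 0.18 on the log2 scale, limma adjusted p = 0.0256), with values of -5.60, -6.05, -5.37, -4.91 and -4.31 on C replicates 1 to 5 and -5.44, -5.53, -5.15, -4.90 and -5.09 on T replicates 1 to 5. All 5 arrays of slide 2, which are C replicates 4 and 5 and T replicates 3 to 5, lay above all 5 of slide 1. Abcg3 (0.30 ± 0.086) and Abcd4 (0.34 ± 0.10) followed without passing (limma, adjusted p = 0.0615 and 0.0659). For Abcc9 the slide difference was 0.068 ± 0.07. This comparison was added after the data were seen. The headers name a genome build for the slide 1 arrays and leave it blank for slide 2. Father codes whose second number is 2 occur only on slide 2, so that number and the slide cannot be told apart fully. The sources do not say what else differed between the slides.

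**Figure D4:**
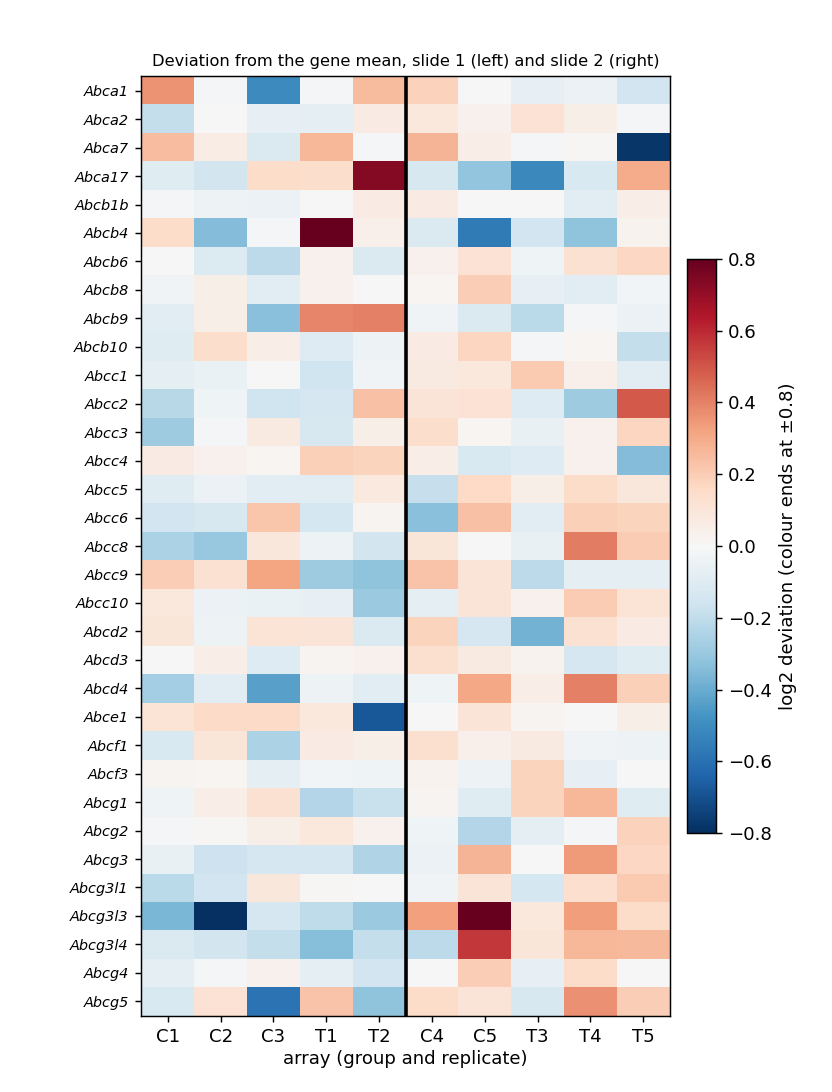
Deviation of each array from the mean of the gene (colour, log2 units, colour ends at 0.8 either way) for 33 tested ABC genes, with slide 1 arrays left and slide 2 arrays right of the black line. Abcg3l3 is higher on all slide 2 arrays, and Abcc9 is higher on C than on T arrays on both slides.

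Promoter windows of 300 bases, 250 before and 50 after the annotated start, were found for 33 of the 42 members. A GC box stood in 23 of the 33 (69.7%), against 33.1% of all 33469 windows of that length, a CCAAT box in 12 (36.4% against 37.5%) and TATAAA or its complement in 5 (15.2% against 14.2%). Both strands were searched, and none of these motifs contains another. The median G and C content was 58.7% in the members and 51.7% in all windows. The 33469 windows were not limited to the 15154 genes named on the array, from which the members come. The sets are thus unlike, and no excess in the family is read from these shares. Of 27 windows of tested members 21 held a GC box, and of 6 windows of members that were not tested 2 did. The median number of CpG was 21 in the former, with a range of 3 to 50, and 9 in the latter, with a range of 1 to 47, so the ranges overlapped.

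Of 14 partners and regulators listed, 12 were tested. T means were higher for 7 and lower for 5, 0 passed by limma, and the median difference of the list was 0.014. Nr1h3 and Nr1h2 are the oxysterol receptors that drive Abca1 and Abcg1, and they stood at -0.26 ± 0.18 and -0.008 ± 0.078. Apoe, an acceptor of exported cholesterol, stood at -0.11 ± 0.087. Nr1i2, the xenobiotic receptor that induces pumps in the liver, stood at -0.011 ± 0.19, while Nr1i3 was well above background on at most 1 array. Nfe2l2, which drives several Abcc genes under oxidative stress, stood at 0.025 ± 0.067. Abcg2 and the endothelial junction gene Cldn5 (0.048 ± 0.10) gave r = 0.31 and rho = 0.21 over the 10 arrays (permutation p = 0.389 and 0.561, adjusted p = 0.393 and 0.561), with 0.002 and 0.42 within slides 1 and 2 and 0.16 without the 2 arrays farthest from the Abcg2 median. Within the C and T arrays r was 0.27 and 0.28. Of 8 pairs listed 4 could be measured. The adjustment ran over these 4 and 0 passed, though no test is drawn from the pair with Abcc9.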

How the data were processed

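Total RNA of rat testis was hybridised to 10 one-colour Agilent arrays, 100 ng of RNA each. The deposited scanner files hold spot intensities that Agilent Feature Extraction had corrected for background, per the file headers (version 10.7 per the submitters' processing notes). The authors' deposited value table holds log2 values; its values match scanner log2 values centred per probe over the arrays (r of 0.9978 to 0.9987 per array, same direction, column medians -0.0169 to 0.0288), so it appears centred per probe, a step that no label or header records, and its scaling between arrays is unknown. It served as an alternative.

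Control spots and spots flagged as outliers were left out, log2 signals were reduced by the 75th percentile of the array, and spots of a probe were averaged. A probe was tested if well above background on at least 5 of 10 arrays. Accessions without version were matched to the RefSeq table of GRCr8, which named 17998 of 30367 probes. A gene stands by its tested probe with the highest mean. T and C were compared with limma 3.58.1 in R 4.3.3 (lmFit, eBayes), adjusted by Benjamini-Hochberg over all tested probes at 0.05, and the procedure was tested on simulated data. Correlations used 100000 permutations, two-sided. The p-values measure the spread between these 10 arrays, whose number limits the precision. No spot was saturated.

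The members and the gene lists were chosen with earlier results of these data known. Values were given for Abcc9, the listed functional groups and partners, the 5 genes of smallest p and of largest SD, and genes with disagreeing probes or separate groups. Values of Abcc8, Abcd4, Abcg3 and Abcg3l1 were added after they were seen. Whether father numbers shared by C and T codes mark pairs could not be decided, and the main comparison did not use them. Alternatives covered background correction (normexp, offset 50, on median spot signals), scaling, filters, flags, slide, block, weights, variance model, probe choice, the authors' table and each array left out. Some results are not reported here.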

Additional observations from a re-analysis of the deposited data

Results flagged for a closer look

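In 8 of 66 groups of 5 arrays checked, 1 array stood apart from the other 4 by Dixon's criterion. Chance meets it in about 1 group in 20 for normal values. The 66 groups share arrays, and no share over all probes stands beside the count, so no excess is read from it. All values are log2 signals relative to the 75th percentile of the array. C replicate 5 was the array in 4 of the 8. On it Abcc4 was at -1.793 (the other C arrays -1.656 to -1.609) and Abcg2 at -2.824 (others -2.624 to -2.544), both low. Abcg3 at -2.706 (others -3.148 to -3.026) and Abcg3l4 at -0.633 (others -1.408 to -1.314) were high there, and without this array their T minus C differences were 0.127 and 0.185 in place of 0.052 and 0.039.

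Among the T arrays, Abca7 was at -4.119 on replicate 5 (others -3.353 to -3.075), Abcb4 at -4.361 on replicate 1 (others -5.977 to -5.614), Abce1 at 0.821 on replicate 2 (others 1.504 to 1.581) and Abcf3 at -0.688 on replicate 3 (others -0.929 to -0.865). Without its outlying array the Abcf3 difference turned from 0.020 to -0.022. No cause was tested for any of the 8.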

How the results depend on the processing

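Under 25 alternatives 0 ABC genes and 0 drug efflux pumps passed, and with limma the lowest adjusted p of a member was 0.759. Between 1 and 4 members, counting Abcc9, which was chosen by these levels, had an unadjusted p under 0.05. In the main comparison it was 1 member, Abcc9, and 3.97% of all probes. No such share is given here for the alternatives, so no excess is read from these counts. The Abcc9 difference ran from -0.518 within slide 1 to -0.29 within slide 2, and from -0.42 to -0.358 with each array left out. As every T array lay below every C array, its sign could not turn in these subsets, and no stability is read from it. The direction of most members was not stable: 10 of 35, counting Abcc9, kept their sign in every alternative and 25 changed it in at least 1. The family median ran from -0.053 to 0.046, and the pumps with a higher T mean numbered 3 to 7. Genes above background numbered 32 (all 10 arrays) to 39 (at least 1). For fathers of the same number, deviations of the C and the T array from their group means gave r of 0.282, 0.194 and -0.512. The arrays with positive r shared a slide and those with negative r did not. These values therefore cannot decide whether the numbers pair the arrays. With the father number as a replicate block over 6 arrays, 0 genes passed, 9 members were higher and 26 lower, and Abcc9 stood at -0.427. The same 6 arrays without the block also gave 9 and 26. With and without the block, the median difference was -0.053 for the members and 0.01 for all probes. For members near background, such as Abcb1a, Abcb11 and Abcg8, the signals are only upper bounds for their probes and do not bound the RNA of the gene.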

Other observations

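ABC proteins under other symbols were measured as well, and 0 of 3 differed past the threshold. Tap1 and Tap2, the peptide transporter of antigen presentation, had T minus C differences of 0.022 ± 0.10 and 0.050 ± 0.11 (SE, 5 arrays per group) on the log2 scale. Cftr, the chloride channel mutated in cystic fibrosis, had 1 of its 2 probes above background, with means of -6.00 ± 0.51 for C and -5.66 ± 0.73 for T (SD, n = 5) and a difference of 0.34 ± 0.35.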
